A study of Mus musculus with 16 samples.

Results

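Wfs1, Pou3f1, Mpped1, Fibcd1, Lmo3, Nov and Man1a are genes by which pyramidal neurons of CA1, the output field of the hippocampus proper, are commonly recognised. These 7 genes were picked by symbol among the 17986 gene IDs that had values in every library, and all 7 were measured and entered the tests. RNA had been sequenced in bulk from CA1 that was cut out of 8 µm brain sections by laser dissection, from male mice aged 3 to 6 months. WT-labelled mice were wild type C57Bl6, and KO-labelled mice carried the Neil3-/- genotype on the C57Bl6 background. Home cage mice had no intervention, and exploration mice spent 20 min per day for 1 week in an open arena with sides of 50 cm with death 20 min after the final session. There were 2 WT-labelled and 2 KO-labelled home cage libraries, and 3 WT-labelled and 3 KO-labelled exploration libraries. A further 6 samples named for the learning condition were not analysed here.

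Pyramidal neurons of CA1 receive input from CA3 through the Schaffer collaterals and send axons to the subiculum and beyond, and they are needed for spatial and contextual memory. They use glutamate and are packed into a thin cell layer, among interneurons and glia. Expression is not even along that layer: some genes mark its dorsal pole, others its ventral pole, and Wfs1 is best known as a marker of the dorsal cells. The 7 genes have unrelated roles. Wfs1 encodes wolframin, a membrane protein of the endoplasmic reticulum that bears on calcium handling and the stress response of that organelle. Pou3f1 encodes a transcription factor with a POU domain, and Lmo3 a transcriptional cofactor made of LIM domains that acts through protein contacts and does not itself bind DNA. Nov, which RefSeq lists as Ccn3, encodes a secreted protein of the extracellular matrix. Fibcd1 encodes a membrane receptor with a fibrinogen-like domain that binds acetylated sugars, Man1a a Golgi mannosidase that trims N-linked glycans, and Mpped1 a protein with a metallophosphoesterase domain. They lie apart in the genome: in RefSeq's annotation of GRCm38.p6, Wfs1 (gene ID 22393) is at chr5:36966104-36988982, Pou3f1 (18991) at chr4:124657646-124660655, Lmo3 (109593) at chr6:138362918-138582206 and Fibcd1 (98970) at chr2:31813290-31846964. Man1a (17155) is at chr10:53904785-54076616, and Nov (18133) and Mpped1 (223726) share a chromosome, at chr15:54745910-54753762 and chr15:83779472-83858487.

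Values were FPKM, fragments per kilobase of transcript scaled to library depth, which can be compared between genes. They summed to between 405718 and 466701 per library. The targeted gene went against the genotype labels: Neil3, which encodes a DNA glycosylase of base excision repair, was listed at 0 in both WT-labelled home cage libraries, and its WT-labelled exploration values were 0, 0 and 0.05 FPKM. In the KO-labelled libraries it stood at 13.77 and 15.22 FPKM in the home cage and at 15.13, 11.85 and 8.35 FPKM after exploration. Every direction between genotypes below is therefore between libraries as labelled. FPKM per gene do not show which part of Neil3 was read, so an intact and a disrupted transcript cannot be told apart. The values of the home cage and of the exploration libraries came in separate blocks of the deposited table, so an effect of the environment and one of the block cannot be told apart. In bulk tissue, fewer cells of a type and less RNA per cell cannot be told apart.

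Promoters are shown for Wfs1 and Lmo3, which were lower in KO-labelled home cage libraries, and for Mpped1, which was higher there. They come from RefSeq on GRCm38.p6, run from 250 bases before to 50 bases after the transcription start, and are written 5′ to 3′ on the strand of the gene. The table of promoters held 5 of the 7 genes, and Pou3f1 and Nov were not among them. Capitals mark the E-box letters CANNTG, which read as the same pattern on both strands.
Wfs1, chr5:36988933-36989232, minus strand: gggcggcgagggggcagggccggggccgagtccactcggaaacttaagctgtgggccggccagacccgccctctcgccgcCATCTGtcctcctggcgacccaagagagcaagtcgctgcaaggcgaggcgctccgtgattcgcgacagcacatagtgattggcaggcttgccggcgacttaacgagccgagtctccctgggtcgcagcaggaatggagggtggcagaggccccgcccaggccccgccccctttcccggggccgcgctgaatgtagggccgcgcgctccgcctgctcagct
Lmo3, chr6:138581919-138582218, minus strand: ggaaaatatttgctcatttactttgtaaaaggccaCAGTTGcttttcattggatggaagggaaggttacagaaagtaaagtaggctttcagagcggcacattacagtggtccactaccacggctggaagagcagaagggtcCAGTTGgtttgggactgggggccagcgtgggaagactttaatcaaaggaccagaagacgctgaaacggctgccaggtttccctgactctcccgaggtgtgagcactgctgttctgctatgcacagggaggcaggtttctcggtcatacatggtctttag
Mpped1, the upstream of 2 starts, chr15:83779773-83780072, plus strand: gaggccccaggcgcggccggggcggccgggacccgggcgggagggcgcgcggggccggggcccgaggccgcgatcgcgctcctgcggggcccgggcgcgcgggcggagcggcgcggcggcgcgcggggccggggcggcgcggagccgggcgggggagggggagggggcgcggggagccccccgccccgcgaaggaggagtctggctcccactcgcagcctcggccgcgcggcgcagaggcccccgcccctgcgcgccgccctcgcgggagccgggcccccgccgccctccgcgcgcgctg
GC content was 70.0% in the Wfs1 window, 50.0% in the Lmo3 window and 89.3% in the Mpped1 window, where the median of all 32851 promoters in the table was 52.7%. The Wfs1 window held 1 E-box, that of Lmo3 held 2, and that of Mpped1 held none, and 72.3% of all promoters in the table held at least 1. None of the 3 windows held, on either strand, the octamer ATGCAAAT (1.74% of all promoters), the cyclic AMP element TGACGTCA (1.79%) or its core TGACG (20.8%), the AP-1 letters TGACTCA (5.2%) or TATAAA (13.6%). The core TGACG lies inside TGACGTCA, so those shares overlap. The downstream start of Mpped1, at chr15:83784579-83784878, had a window with 47.3% GC and 1 E-box. The letters found or missing in these windows say nothing of which factors bind there.

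The label of CA1 pyramidal tissue was first set against marker lists. All 7 genes were strongly expressed in every library: their mean levels lay between the 86.8th percentile (Man1a) and the 97.6th (Wfs1 and Mpped1) of the 17986 genes. Genes of excitatory neurons of every hippocampal field summed to between 4234 and 5095 FPKM per library. The dentate granule cell markers Prox1 and C1ql2 stayed at or under 0.50 FPKM, and the CA3 marker Iyd at or under 0.18 FPKM. Of the rest of the dentate list, Dsp and Tdo2 stayed under 1 FPKM, Trpc6 ranged from 0.51 to 1.17 FPKM and Lct from 1.06 to 22.3 FPKM. Other genes of the CA3 list were present: Grik4 ranged from 1.89 to 8.49 FPKM, Bok from 4.53 to 32.4 FPKM, Homer3 from 12.7 to 18.2 FPKM and Pvrl3 from 4.08 to 6.35 FPKM. Of the CA2 markers, Rgs14 ranged from 94.1 to 127 FPKM and Amigo2 from 0.9 to 16.9 FPKM. Markers of other cells were also read: Gad1 of interneurons ranged from 32.4 to 51.6 FPKM, Aqp4 of astrocytes from 3.72 to 7.32 FPKM, and Mbp of oligodendrocytes from 88.6 to 269 FPKM. The dissected tissue thus held RNA of interneurons and glia beside that of pyramidal neurons. Prox1 and C1ql2, the defining markers of dentate granule cells, were near 0, but Lct of the same list was not.

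**Figure D1:**
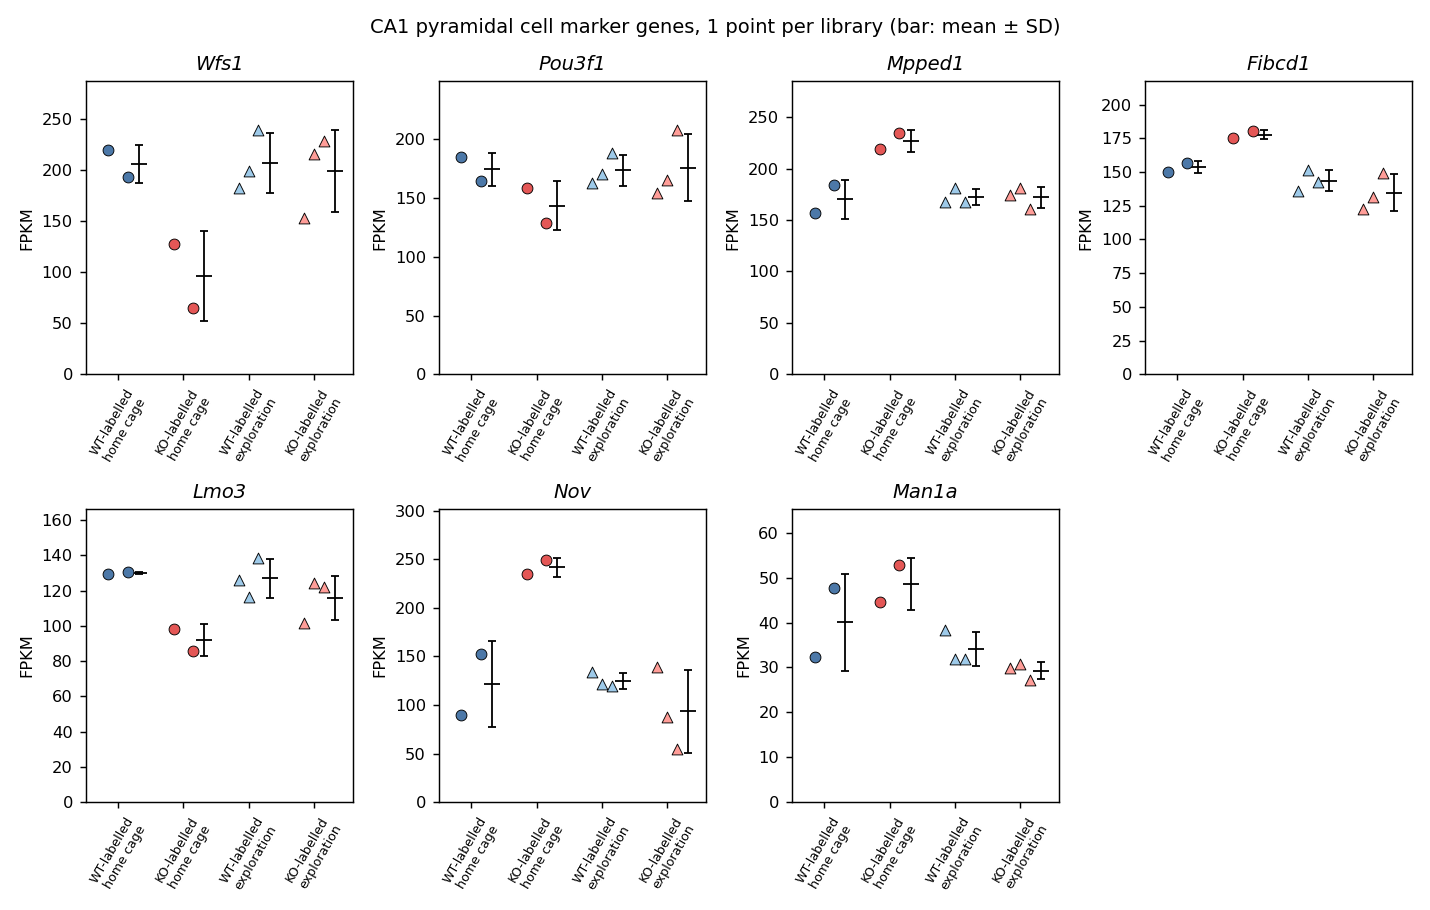
FPKM (y axis, from 0) of the 7 genes in each of the 10 libraries, 1 panel per gene and 1 point per library, with the mean and SD of each group beside its points. KO-labelled home cage libraries sit apart for Wfs1 (64.9 and 127 FPKM), Lmo3, Mpped1 and Nov (234.74 and 248.94 FPKM).

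Averaged over the 10 libraries, Mpped1 (183 FPKM), Wfs1 (182), Pou3f1 (168), Fibcd1 (150), Nov (138) and Lmo3 (117) were of one order of magnitude, and Man1a (36.7 FPKM) was lower. Neighbours in that order mostly did not differ beyond their spread. Mpped1 exceeded Wfs1 by 0.645 ± 76.6 FPKM (SD of the paired differences, n = 10) and in only 3 of 10 libraries. Wfs1 exceeded Pou3f1 in 7 of 10, Pou3f1 exceeded Fibcd1 in 8 of 10, Fibcd1 exceeded Nov in 7 of 10 and Nov exceeded Lmo3 in 6 of 10. Lmo3 exceeded Man1a in 10 of 10 libraries, by 80.5 ± 22.3 FPKM (SD, n = 10). The genes also differed in how much they varied between libraries. Nov had a coefficient of variation of 44.7% and a ratio of highest to lowest library of 4.60, and Wfs1 had 29.4% and 3.68. Fibcd1, the steadiest, had a coefficient of variation of 12.1%. The summed level of the 7 genes varied by only 5.51%, from 875 to 1058 FPKM (mean 974.88 ± 53.7 SD, n = 10), so that high values of some were met by low values of others in the same libraries.

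The first comparison asked whether the genotype labels separate CA1 marker expression in mice left in the home cage. Wfs1 and Lmo3 were lower and Mpped1 was higher in the KO-labelled libraries, and the other 4 genes did not pass the test. A gene was called where its adjusted p, from limma on log2(FPKM + 1) over all 11892 tested genes, was under 0.05. By that rule 3 of the 7 genes were called, against a background of 3.57% of all tested genes. In 6 of the 7 the libraries of the groups did not overlap, which with 2 libraries a side was so for 46.9% of all tested genes. The median log2 difference was 0.21 over the 7 genes and -0.02 over all tested genes.

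Wfs1 stood at 218.93 and 192.41 FPKM in the WT-labelled home cage libraries and, KO-labelled, at 127.3 and 64.88 FPKM. Both KO-labelled libraries lay below both WT-labelled ones, and the second was the lowest of all 10 libraries. The group means were 206 ± 18.8 and 96.1 ± 44.1 FPKM (SD, n = 2 each), a log2 difference of -1.17 (SE 0.26, limma adjusted p = 0.0358), or 0.446 times the WT-labelled level. Lmo3, the LIM cofactor, stood at 129.41 and 130.57 FPKM against 98.37 and 85.74 FPKM. The groups did not overlap, and the log2 difference was -0.50 (SE 0.11, limma adjusted p = 0.0387). Pou3f1, the POU factor, stood at 184.53 and 164.24 FPKM against 158.48 and 128.69 FPKM. Its libraries did not overlap either, but the log2 difference of -0.28 (SE 0.14, limma adjusted p = 0.317) did not pass the test.

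Mpped1 stood at 156.77 and 183.51 FPKM in the WT-labelled home cage libraries and, KO-labelled, at 218.98 and 234.32 FPKM. The KO-labelled libraries were the highest of all 10, and the log2 difference was 0.42 (SE 0.10, limma adjusted p = 0.0387). The matrix protein gene Nov stood at 90.12 and 152.93 FPKM against 234.74 and 248.94 FPKM. The WT-labelled libraries were far apart, and both lay below the KO-labelled ones. Its log2 difference of 1.03 had an SE of 0.33 and did not pass the test (limma unadjusted p = 0.00852, adjusted p = 0.113). Fibcd1, the sugar-binding receptor, stood at 150.28 and 156.81 FPKM against 175.35 and 180.19 FPKM, with no overlap and a log2 difference of 0.21 (SE 0.10, limma adjusted p = 0.275). Man1a was the gene whose libraries overlapped, at 32.43 and 47.69 FPKM against 44.57 and 52.79 FPKM (log2 difference 0.30, SE 0.16, limma adjusted p = 0.354).

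The home cage calls rested on few libraries. None of the 3 held when the first WT-labelled or the second KO-labelled home cage library, or the first or second WT-labelled or the second KO-labelled exploration library, was left out, and without that second KO-labelled home cage library the Wfs1 log2 difference shrank to -0.68 (limma adjusted p = 0.197) and the calls among all genes fell from 425 to 13. Without the second WT-labelled home cage library 1 call was left, that of Mpped1.

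**Figure D2:**
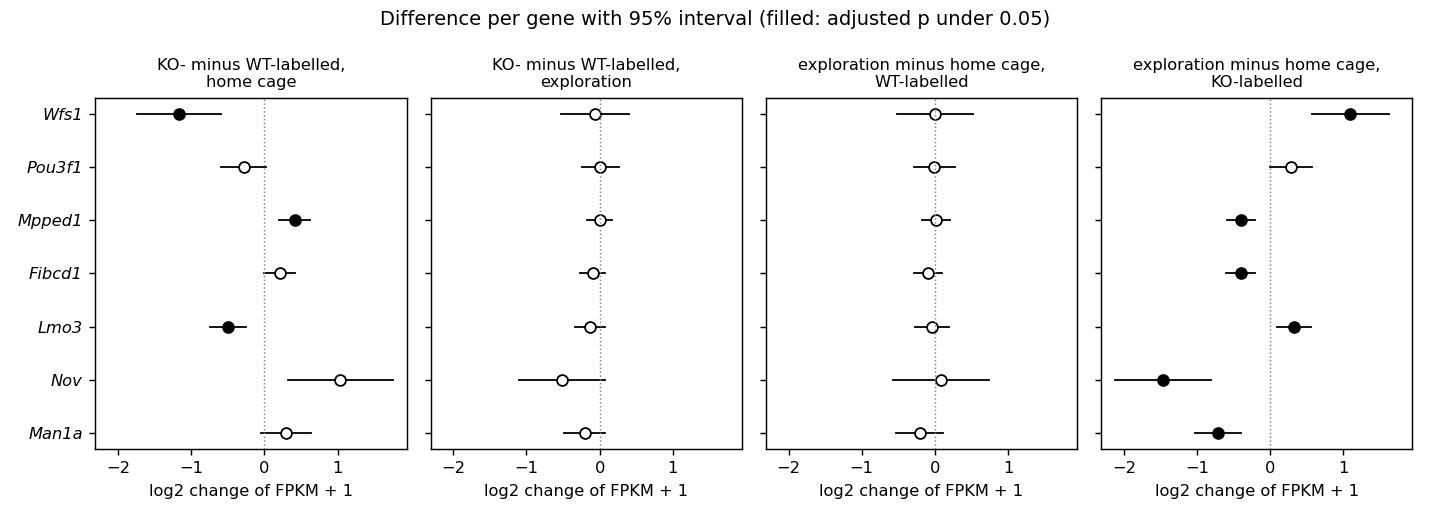
Log2 differences of FPKM + 1 (x axis) with 95% confidence intervals from limma for the 7 genes, 1 panel per comparison, with filled points for called genes. Wfs1, Mpped1 and Lmo3 are called between genotypes in the home cage, and the intervals of all 7 genes cover 0 between genotypes after exploration.

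After exploration, the genotype labels separated none of the 7 genes by the test. limma called 0 of the 7 and 0 had an unadjusted p under 0.05, with 0.597% of all tested genes called. Wfs1 stood at 182.5, 198.64 and 238.69 FPKM in WT-labelled libraries against 153.1, 215.04 and 228.16 FPKM in KO-labelled ones, so the groups lay across each other. Its log2 difference was -0.07, with a 95% confidence interval from -0.53 to 0.40. Mpped1 stood at 167.88, 181.12 and 167.24 FPKM against 174.33, 181.01 and 160.94 FPKM, and the interval of its difference ran from -0.17 to 0.17. Lmo3 stood at 125.73, 116.26 and 138.69 FPKM against 101.64, 124.32 and 122.12 FPKM (interval -0.33 to 0.07 on the log2 scale). In each of these 3 genes the libraries of the genotypes overlapped.

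Nov was the most uneven gene after exploration. It stood at 133.99, 121.25 and 119.19 FPKM in WT-labelled libraries against 138.83, 87.61 and 54.14 FPKM in KO-labelled ones, which span the range from above the WT-labelled libraries to the lowest of all 10. Its log2 difference was -0.51 (SE 0.27, limma adjusted p = 0.345). Man1a stood at 38.4, 31.81 and 31.88 FPKM against 29.92, 30.85 and 27.17 FPKM. It was the only one of the 7 without overlap, against a background of 24.9% of all tested genes, and its log2 difference was -0.21 (SE 0.13, limma adjusted p = 0.431). Pou3f1 (162.48, 170.37 and 188.04 against 154.38, 165.0 and 207.98 FPKM) and Fibcd1 (136.23, 151.73 and 142.73 against 122.45, 131.52 and 149.48 FPKM) overlapped. Averaged over both environments, limma called 0 of the 7 between genotypes (2.13% of all tested genes), and Wfs1, Mpped1 and Lmo3 were the 3 with an unadjusted p under 0.05.

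The effect of exploration was then read within each genotype label. Among WT-labelled libraries, exploration and home cage were close for all 7 genes. limma called 0 of the 7, 0 had an unadjusted p under 0.05, and 6.31% of all tested genes were called. The libraries overlapped in all 7, while they did not in 47.8% of all tested genes. The Wfs1 log2 difference was 0.00 with a 95% confidence interval from -0.52 to 0.52, that of Mpped1 0.02 (-0.17 to 0.21) and that of Nov 0.09 (-0.57 to 0.74). These intervals leave room for changes of moderate size in Wfs1 and Nov. Man1a had the largest difference, -0.21 (-0.53 to 0.11).

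Among KO-labelled libraries, Wfs1 and Lmo3 were higher and Nov, Man1a, Fibcd1 and Mpped1 were lower after exploration. limma called 6 of the 7, 2 higher and 4 lower, where 28.6% of all tested genes were called. In the same 6 genes the groups did not overlap, as in 52.1% of all tested genes. This comparison uses the same KO-labelled home cage libraries as the comparison of genotypes in the home cage, so the opposite signs in the 2 comparisons are not independent. The median log2 difference was -0.40 over the 7 genes and -0.04 over all tested genes.

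Wfs1 went from 127.3 and 64.88 FPKM in the home cage to 153.1, 215.04 and 228.16 FPKM after exploration, 2.14 times as high (log2 difference 1.10, SE 0.24, limma adjusted p = 0.00746). All exploration libraries lay above both home cage libraries. Nov went the other way, from 234.74 and 248.94 FPKM to 138.83, 87.61 and 54.14 FPKM, or 0.363 times (log2 difference -1.46, SE 0.30, limma adjusted p = 0.00567). Its exploration libraries were all lower, and they were more spread than those of the other 6 genes. The Golgi mannosidase gene Man1a went from 44.57 and 52.79 FPKM to 29.92, 30.85 and 27.17 FPKM (log2 difference -0.71, SE 0.14, limma adjusted p = 0.00556). Fibcd1 and Mpped1 had log2 differences of -0.40 each (SE 0.09 each, limma adjusted p = 0.00759 and 0.00809), and Lmo3 had one of 0.33 (SE 0.10, limma adjusted p = 0.037). The Lmo3 call was also lost with no filter (limma adjusted p = 0.0788), with no variance trend (adjusted p = 0.0552) and when only the groups compared were fitted (adjusted p = 0.0901). Pou3f1, with 158.48 and 128.69 FPKM before and 154.38, 165.0 and 207.98 FPKM after, overlapped and did not pass (log2 difference 0.29, SE 0.13, limma adjusted p = 0.117). All 6 calls were lost when the second KO-labelled home cage library was left out: Wfs1 then had a log2 difference of 0.62 (limma adjusted p = 0.11) and Nov one of -1.42 (limma adjusted p = 0.0725), and the calls among all genes fell from 3400 to 505.

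Averaged over genotype labels, exploration differed from home cage in 5 of the 7 genes, against 31.9% of all tested genes. Wfs1 was higher (log2 difference 0.55, limma adjusted p = 0.0285), and Nov, Man1a, Fibcd1 and Mpped1 were lower, from -0.69 in Nov to -0.19 in Mpped1. Lmo3 and Pou3f1 did not pass. This average again uses the KO-labelled home cage libraries. Among WT-labelled libraries none of the 5 was called, with log2 differences of 0.00 (Wfs1), 0.09 (Nov), -0.21 (Man1a), -0.10 (Fibcd1) and 0.02 (Mpped1). Among KO-labelled libraries these were 1.10, -1.46, -0.71, -0.40 and -0.40, so most of the averaged difference came from the KO-labelled libraries. Scaled to excitatory neuron genes, all 4 lower calls were lost, with Nov at -0.55 (limma adjusted p = 0.0757), Man1a at -0.32 (0.062), Fibcd1 at -0.11 (0.201) and Mpped1 at -0.05 (0.696). Among the 6 genes that set this scaling, Zbtb20 (mean 9.62 FPKM) differed most in this comparison, with a log2 difference of -0.79. The median of the 6 was -0.01, so the shift made by this scaling came largely from 1 gene. Only 1 of the 5 calls, Man1a, was left without the second WT-labelled home cage library, 2 without the second KO-labelled home cage library or the third WT-labelled exploration library, and 3 without the third KO-labelled exploration library. Of markers of other cells, limma called higher 4 of 6 oligodendrocyte, 4 of 6 microglial and 3 of 3 tested blood genes. It also called higher 2 of 6 astrocyte, 3 of 8 interneuron and 0 of 5 endothelial genes, against 1504 of all 11892 tested genes. In WT-labelled libraries 3 oligodendrocyte, 3 microglial, 2 astrocyte, 1 interneuron and 2 blood genes were called higher (240 of all tested genes). In KO-labelled libraries these counts were 0, 0, 0, 2 and 1 (1429 of all tested genes). Oligodendrocyte genes summed to between 133 and 219 FPKM in the home cage and between 189 and 356 FPKM after exploration, and blood genes to between 76.3 and 115 against between 123 and 236 FPKM. Their part in the differences of the 7 genes was not tested. The difference between the genotype labels in the response to exploration was tested directly. limma called 0 of the 7 genes (0.875% of all tested genes were called), and 6 had an unadjusted p under 0.05. Nov came nearest, with a difference in response of -1.55 (SE 0.42, 95% confidence interval -2.47 to -0.62, limma adjusted p = 0.094). Wfs1 followed in size, with 1.10 (SE 0.34, interval 0.36 to 1.84, limma adjusted p = 0.126).

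**Figure D3:**
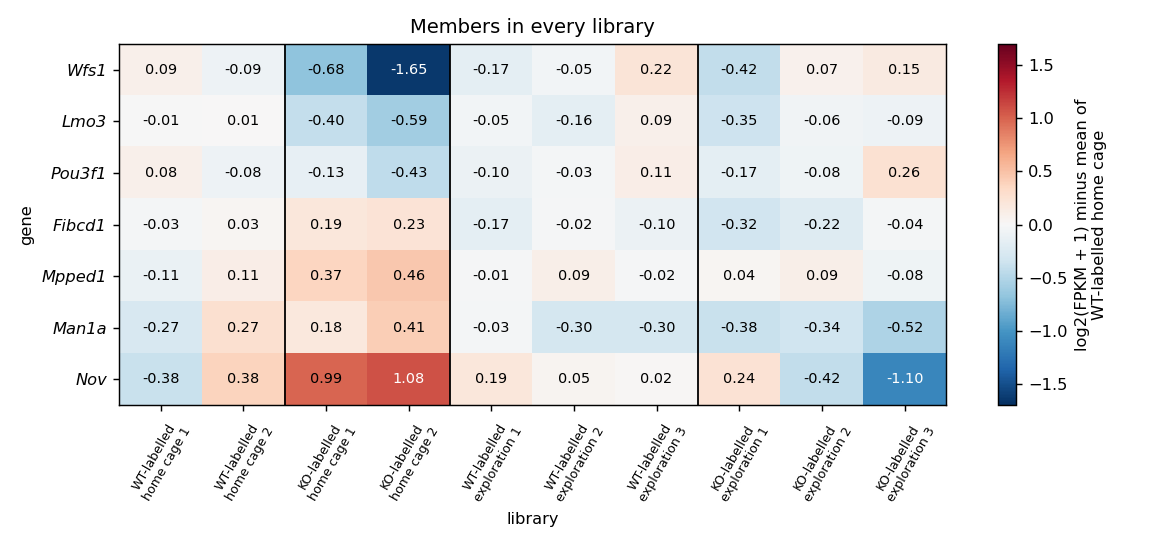
Log2(FPKM + 1) of each gene (y axis) in each library (x axis), minus the mean of the WT-labelled home cage libraries, as colour and number. The KO-labelled home cage libraries are low in the rows of Wfs1, Lmo3 and Pou3f1 and high in the other 4, from -1.65 for Wfs1 to 1.08 for Nov in the second library.

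Within single libraries, Wfs1 and Nov stood in nearly opposite order. The ratio of Nov to Wfs1, picked after the values were seen and given with no test, was 0.412 and 0.795 in WT-labelled and 1.84 and 3.84 in KO-labelled home cage libraries. After exploration it was 0.734, 0.610 and 0.499 in WT-labelled and 0.907, 0.407 and 0.237 in KO-labelled libraries. Nov thus exceeded Wfs1 only in the KO-labelled home cage libraries, and the lowest ratio was in a KO-labelled library too. The ratio of Mpped1 to Lmo3, picked the same way, was between 1.21 and 1.41 in WT-labelled home cage libraries and 2.23 and 2.73 in the KO-labelled ones. It ran from 1.21 to 1.72 in the 6 exploration libraries. Measured against the WT-labelled home cage mean, the KO-labelled home cage libraries lay on the same side in all 7 genes, the second further than the first, although the first lay within the range of the other libraries for Pou3f1 and Man1a.

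The genes whose profile was most like each of the 7 were found among 8229 tested genes with a mean of at least 5 FPKM, by Pearson's r of log2(FPKM + 1) over the 10 libraries after the mean of each environment was subtracted. The libraries of a pattern share their depth and dissection, so r is a description. Lct (r = 0.983) and Rasd1 (0.977) were most like Wfs1, and over the 6 exploration libraries alone their r was 0.876 and 0.809. Lct, which encodes lactase, stood at 19.62 and 15.17 FPKM in WT-labelled and at 5.44 and 1.06 FPKM in KO-labelled home cage libraries, and between 10.4 and 22.3 FPKM after exploration. Camk2b (r = 0.972), the beta subunit of calcium/calmodulin-dependent kinase II, and Bcan (0.971), a proteoglycan of the brain matrix, were most like Lmo3. Pnck and Inhbb (0.98 each), the latter a subunit of inhibins and activins, were most like Nov. Inhbb stood at 4.55 and 7.68 FPKM against 11.43 and 13.57 FPKM in the home cage, and at 1.97 FPKM in the KO-labelled exploration library where Nov was lowest. The remaining genes were Rara (0.978) and Rnf167 (0.954) for Pou3f1, Cask (0.974) and Myo5b (0.957) for Mpped1, Tspyl3 (0.942) and Ddr1 (0.917) for Fibcd1, and Phf14 (0.928) and Tmem29 (0.921) for Man1a. Closest to the mean profile of the 7 were C2cd2l (0.963), Otud7a (0.894) and Adgrb2 (0.88).

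Other genes known from CA1 neurons were read beside the markers, from a further list whose 7 genes were all tested. Between genotype labels in the home cage, 1 of these was higher and none lower by the test, against 3.57% of all tested genes. This was Dcn, the proteoglycan decorin, at 0.2 and 0.69 FPKM in WT-labelled and 2.82 and 27.24 FPKM in KO-labelled libraries (log2 difference 2.87, SE 0.67, limma adjusted p = 0.0391), where 1 library holds most of the rise. After exploration limma called 0 of these between genotype labels, where 0.597% of all tested genes were called, and 2 had an unadjusted p under 0.05. Among KO-labelled libraries, exploration and home cage differed in 4 of the further list, 2 higher and 2 lower, against 28.6% of all tested genes: Spink8 (log2 difference 0.77) and Itpka (0.42), a kinase of inositol trisphosphate, were higher, and Dcn (-2.45) and the calcium buffer gene Calb1 (-0.67) were lower. Spink8 went from 115.31 and 85.75 FPKM to 193.53, 159.4 and 161.15 FPKM, with no overlap. In WT-labelled libraries limma called 0 of the further list between environments, where 6.31% of all tested genes were called, and 1 had an unadjusted p under 0.05.

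**Figure D4:**
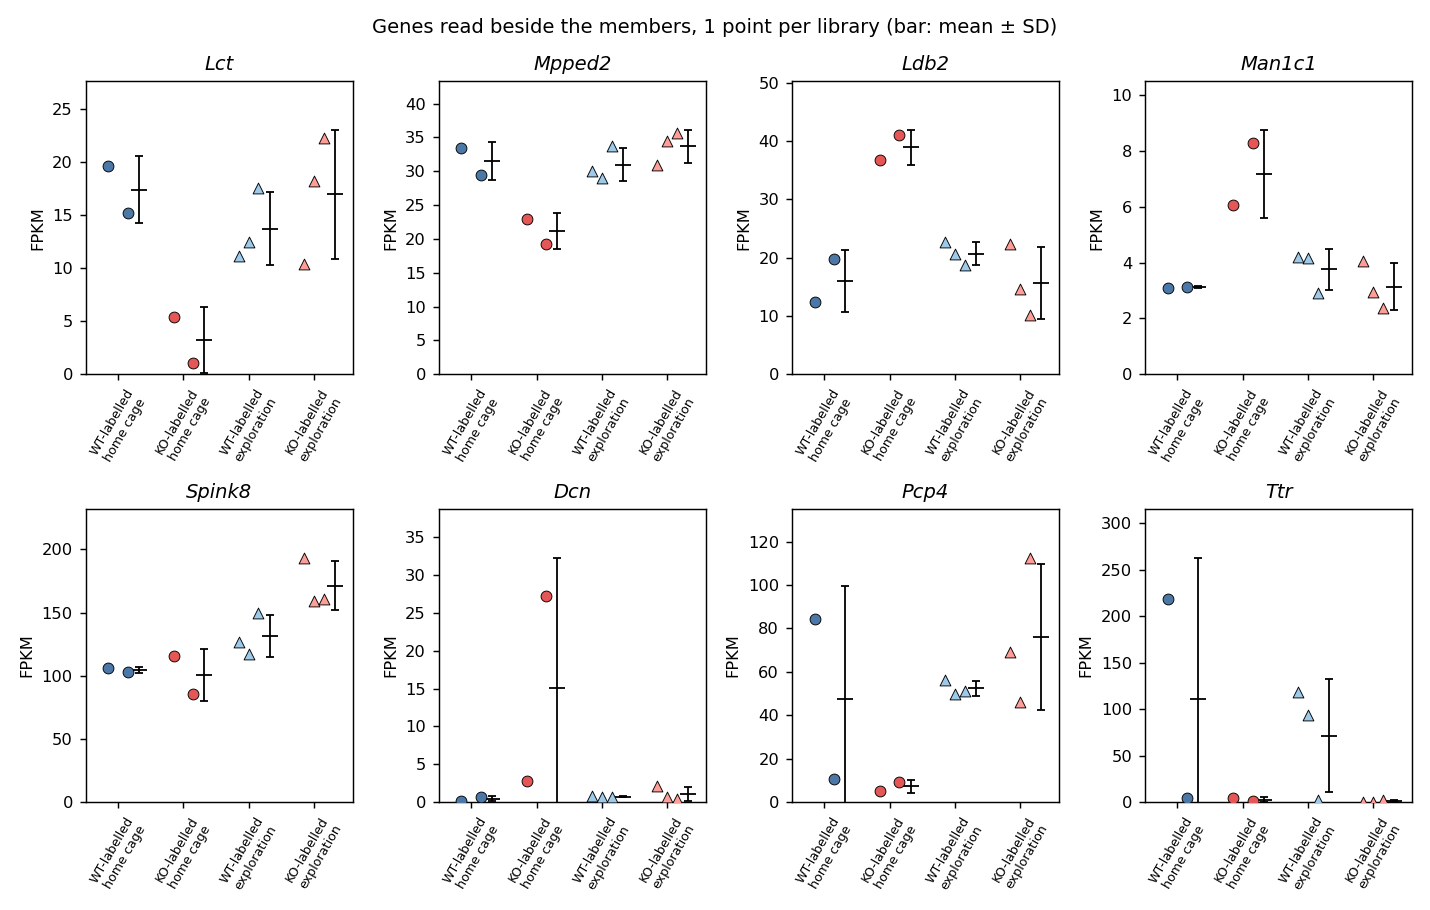
FPKM (y axis, from 0) by library of 8 genes read beside the 7, 1 point per library, with the mean and SD of each group (bars that would pass below 0 end at the axis). Lct and Mpped2 are lower and Ldb2 and Man1c1 higher in the KO-labelled than in the WT-labelled home cage libraries, and Ttr is above 90 FPKM in 3 WT-labelled libraries only.

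Relatives and partners of the 7 came from a list of 28 genes, of which 24 were tested. Between genotype labels in the home cage, 2 were higher and 1 lower by the test, where 3.57% of all tested genes were called. Ldb2, a LIM-domain-binding protein through which LIM-only factors such as Lmo3 join complexes, stood at 12.32 and 19.83 FPKM in WT-labelled and 36.79 and 41.02 FPKM in KO-labelled libraries (log2 difference 1.26, SE 0.27, limma adjusted p = 0.033), opposite in sign to Lmo3. Man1c1, another mannosidase of the same family as Man1a, stood at 3.09 and 3.14 FPKM against 6.05 and 8.29 FPKM (log2 difference 0.98, SE 0.20, limma adjusted p = 0.0267). Mpped2, the paralog of Mpped1, stood at 33.47 and 29.48 FPKM against 23.0 and 19.22 FPKM (log2 difference -0.56, SE 0.11, limma adjusted p = 0.0265), opposite in sign to Mpped1. None of 5 POU factors, none of the 7 tested genes of the unfolded protein response and not the 1 tested CCN gene, Cyr61, was called there by limma, with unadjusted p under 0.05 in 2, 1 and 0 of them. After exploration limma called 0 of the 24 between genotype labels, where 0.597% of all tested genes were called, and 5 had an unadjusted p under 0.05.

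Among KO-labelled libraries, 7 of the 24 relatives and partners were higher after exploration and 4 lower, where 28.6% of all tested genes were called. The largest differences were those of Ldb2 (-1.32), Man1c1 (-0.99), Mpped2 (0.65) and the stress response factors Ddit3 (0.64) and Atf4 (0.64). Ldb2, Man1c1 and Mpped2 had again the opposite sign to their difference between genotype labels in the home cage, which shares the KO-labelled home cage libraries. Among WT-labelled libraries 1 of 24, the POU factor gene Pou2f1, was called between environments, where 6.31% of all tested genes were called. Its log2 difference was -0.49 (limma adjusted p = 0.0471). This gene was low, at 1.09 and 1.12 FPKM in the home cage and 0.48, 0.5 and 0.53 FPKM after exploration.

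Glial and endothelial markers moved with the home cage difference, in which 3.57% of all tested genes were called. The 6 astrocyte genes summed to 62.6 and 69.5 FPKM in WT-labelled and to 97.3 and 124 FPKM in KO-labelled home cage libraries, with 2 of 6 called higher: Gfap (log2 difference 1.25, limma adjusted p = 0.011) and Aqp4 (0.64, limma adjusted p = 0.0265). The 6 oligodendrocyte genes summed to 133 to 158 FPKM against 181 to 219 FPKM (0 of 6 called by limma, 2 with an unadjusted p under 0.05). The 6 microglial genes summed to 25.6 to 27.2 against 33.7 to 37.7 FPKM, and the 5 endothelial genes to 20.6 to 21.2 against 26.5 to 31.8 FPKM, with 1 called higher in each list. The summed level of the 6 genes of excitatory neurons of every field overlapped, at 4512 to 4809 against 4234 to 5065 FPKM, and 1 of them, Zbtb20, was called lower (log2 difference -0.83, limma adjusted p = 0.0377). The 8 interneuron genes summed to 215 to 239 against 229 to 248.71 FPKM, which overlap, and limma called 0 of them, with 0 at an unadjusted p under 0.05. Blood genes overlapped as well, at 76.3 to 115 against 96.8 to 115 FPKM. The part of these other cells in the differences of the 7 genes was not tested.

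Markers of neighbouring fields and of the choroid plexus differed between single libraries as well. The 6 CA2 genes summed to 260 and 128 FPKM in WT-labelled and 126 and 133 FPKM in KO-labelled home cage libraries, and to between 168 and 286 FPKM after exploration. The CA2 marker Pcp4, named after its values were seen, stood at 84.32 and 10.66 FPKM against 5.05 and 9.43 FPKM in the home cage, and between 46.3 and 113 FPKM after exploration. The 6 dentate granule cell genes summed to 16.7 to 21.3 FPKM against 2.72 to 6.97 FPKM in the home cage. Most of the WT-labelled sums was Lct, the gene most like Wfs1, and in the second KO-labelled library Lct was 1.06 of the 2.72 FPKM. Ttr, the transport protein gene that marks choroid plexus, stood at 218.7 and 3.89 FPKM against 4.24 and 0.73 FPKM in the home cage. The other defining choroid plexus marker, Folr1, was low throughout but followed Ttr, at 0.84, 0.53 and 0.65 FPKM in the 3 libraries where Ttr was above 90 FPKM and at or under 0.04 FPKM in the others. Kl of the same list was called lower in the KO-labelled home cage libraries (log2 difference -0.58, limma adjusted p = 0.0359), but it did not follow Ttr. Kl stood at 14.7 and 13.74 FPKM in the WT-labelled home cage libraries, where Ttr differed widely. In the third KO-labelled exploration library Kl stood at 14.13 FPKM and Ttr at 2.35 FPKM. The part of the neighbouring fields and of the choroid plexus in the differences of the 7 genes was not tested.

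**Figure D5:**
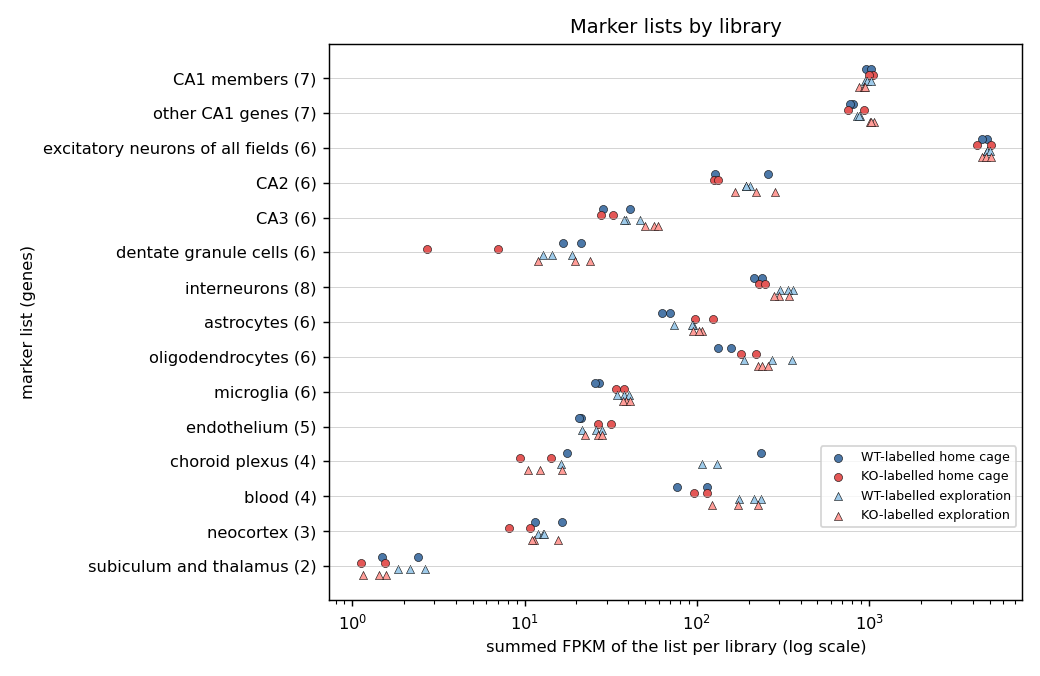
Summed FPKM of each marker list (x axis, log scale; the number of genes stands beside each name), with 1 point per library. Astrocyte sums in the KO-labelled home cage libraries (97.3 and 124 FPKM) lie above those of the WT-labelled home cage libraries (62.6 and 69.5 FPKM), and choroid plexus sums are above 100 FPKM in 3 WT-labelled libraries.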

How the data were processed

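The authors deposited FPKM per gene and library, in 1 table with a separate block for each environment. The submitters' processing notes name GRCm38, mm10, HISAT, StringTie, GATK, Bowtie2 and RSEM without saying which made the FPKM. The blocks were joined by gene ID (17986 genes in both). FPKM are not counts, so each gene was tested with limma 3.58.1 (R 4.3.3), with a variance trend, on the log2 of FPKM plus 1, for the 11892 genes that reached 1 FPKM in 2 or more libraries. All 10 libraries were fitted with 1 mean per group, and p-values were adjusted by Benjamini-Hochberg over all tested genes. Log2 differences on this scale understate changes of low genes. Per the series design each library is 1 mouse. The p-values set a difference against the spread between mice within groups. That spread was pooled over all groups, those outside the comparison too, and drawn toward a trend over all tested genes.

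The 7 genes, lists and tests were chosen with earlier results of these data known. The text names all 7, Neil3, at most 5 called genes per added list and comparison with the largest log2 difference, the defining markers of each cell type list, and the genes most like each of the 7. A listed gene is not reported here. The spacing of low FPKM gave a depth of about 18860000 to 20080000 fragments per library (17180000 to 18280000 with no length offset), so counting error on the 7 genes was 0.946% to 1.95%, well under their spread between libraries. Alternatives were size factors, no filter, a filter of 5 FPKM, a pseudocount of 0.1, scaling to excitatory neuron genes, no variance trend, only the groups compared, and leaving out each library.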

Additional observations from a re-analysis of the deposited data

How the results depend on the processing

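The count of the 7 genes called between genotypes in the home cage fell from 3 to 0 with no filter and to 0 with no variance trend, and ranged from 0 to 4 when 1 library was left out. With no filter the calls among all genes fell from 425 to 27 there, from 71 to 10 after exploration, from 253 to 47 averaged over environments, from 750 to 440 between environments in WT-labelled libraries and from 104 to 0 for the difference in response. Between genotypes averaged over environments a filter of 5 FPKM called 1 gene, and leaving out 1 library gave 0 to 1. Between environments, leaving out 1 library gave 0 to 6 calls in KO-labelled libraries and 1 to 6 averaged over genotypes, where no filter gave 2 and scaling to excitatory neuron genes 3. Under that scaling Wfs1 remained of the 5, and Pou3f1 (0.28, limma adjusted p = 0.0116) and Lmo3 (0.28, limma adjusted p = 0.0135) were called in addition. For the difference in response, leaving out 1 library gave 0 to 1. The cause of these shifts was not tested. Lmo3 was no longer called in the home cage with size factors (limma adjusted p = 0.0591) or when scaled to excitatory neuron genes (-0.36, limma adjusted p = 0.123), and Mpped1 was not called when only the home cage groups were fitted (limma adjusted p = 0.102). In KO-labelled libraries between environments, Mpped1 was not called when scaled to excitatory neuron genes (-0.31, limma adjusted p = 0.089), and Lmo3 was also lost there in 6 of the 10 fits without 1 library. No called difference of the 7 genes changed sign under any of the 17 alternatives.

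Signs turned only in differences that were not called. Between genotypes after exploration, Mpped1 was 0.022 with size factors and 0.034 scaled to excitatory neuron genes, and with 1 library left out Mpped1 ranged from -0.0377 to 0.0466, Pou3f1 from -0.118 to 0.0956 and Wfs1 from -0.177 to 0.109. Between environments in WT-labelled libraries, Pou3f1 was 0.027 with size factors, and scaled to excitatory neuron genes Pou3f1 was 0.185, Fibcd1 0.0938 and Lmo3 0.153. With 1 library left out the ranges there were -0.0900 to 0.0771 for Pou3f1, -0.0932 to 0.133 for Mpped1, -0.293 to 0.464 for Nov, -0.108 to 0.0931 for Wfs1, -0.480 to 0.0620 for Man1a and -0.104 to 0.0226 for Lmo3.

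Scaling to excitatory neuron genes moved the median of all genes by 0.124 between genotypes in the home cage, by 0.168 between environments in WT-labelled libraries and by 0.123 averaged over genotypes. The share of calls that were higher went with it from 59.3% to 81.9%, from 32% to 84% and from 39.7% to 78.9%, and in other comparisons from 32.4% to 48.1% (genotypes after exploration), from 36.4% to 74% (genotypes averaged) and from 42% to 64.3% (environments in KO-labelled libraries). With size factors it went from 42% to 54.6% between environments in KO-labelled libraries and from 39.7% to 51.9% averaged over genotypes. Of the 6 excitatory neuron genes used for scaling, Zbtb20 differed most in the 3 comparisons named first. Its log2 differences there were -0.83, -1.16 and -0.79, and the medians of the 6 were -0.08, -0.002 and -0.01. That scaling thus moved largely with 1 gene in those comparisons. No paired analysis was possible because the groups carry no replicate numbers that mark shared animals, litters or days. With 2 libraries a group in the home cage, 1 library sets much of any difference. Counting error was estimated only for Wfs1, Pou3f1, Mpped1, Fibcd1, Lmo3, Nov and Man1a. The part of depth in the values of other genes was not tested.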

Other observations

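Genes that mark the ventral pole of CA1 in the mouse were read after the values of the 7 genes were seen, and are given with no test. Grp, which encodes gastrin-releasing peptide, stood at 1.73 and 9.36 FPKM in WT-labelled and 40.28 and 58.83 FPKM in KO-labelled home cage libraries. After exploration it stood at 14.83, 6.06 and 5.23 FPKM in WT-labelled and 20.6, 3.54 and 1.16 FPKM in KO-labelled libraries. Nr2f2, a nuclear receptor gene, stood at 0.92 and 1.92 FPKM against 5.43 and 7.76 FPKM in the home cage, and between 1.24 and 2.63 FPKM after exploration. Both were highest in the KO-labelled home cage libraries, where Wfs1, a dorsal marker, was lowest. The serotonin receptor gene Htr2c was raised in only 1 library, at 3.11 and 3.42 FPKM against 3.57 and 7.42 FPKM. Dcn and Calb1, of the further list above, were read with these genes. Dcn was also highest in the KO-labelled home cage libraries, while Calb1 overlapped there, at 67.15 and 56.78 FPKM against 65.38 and 86.77 FPKM. The labels do not give the level of the sections along the long axis of the hippocampus, and its part in the differences of the 7 genes was not tested.

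Bok, a CA3 marker on the lists and a relative of the apoptosis regulator Bcl2, was the 1 gene of all marker lists called for the difference in response to exploration (log2 1.84, limma adjusted p = 0.0496). Of all tested genes 0.875% were called there, so a single call among the lists does not set Bok apart. With no filter no gene was called for this difference, and the Bok call was lost. It stood at 15.59 and 6.44 FPKM in WT-labelled and 4.53 and 4.99 FPKM in KO-labelled home cage libraries, and at 19.76, 12.88 and 13.98 FPKM against 28.35, 26.82 and 32.43 FPKM after exploration.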
